A study of Homo sapiens with 8 samples.

Results

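NRCAM, NCAM1, L1CAM, CHL1, NFASC, ALCAM, MCAM, CADM1 and NEO1 encode cell surface adhesion molecules and receptors with immunoglobulin domains, many of them known from the nervous system. These 9 genes were described across 8 RNA sequencing libraries of MEL202, a human uveal melanoma line with mutant SF3B1, which encodes a splicing factor. A gene was taken as the locus that bears its symbol in the deposited table of 32087 loci, and where a symbol had more than 1 locus, as the locus with the highest mean. The set was chosen by a measured value: NRCAM had the largest gain in 2 of the derived lines among named genes that averaged at least 5, small RNAs aside, and its relatives were added by name. NRCAM values between lines are therefore a description, with no test. Of the 9 genes, 7 averaged at least 1 across libraries and entered the tests, as did 12921 loci in all. NFASC and CADM1 lay under that limit and are given by their values alone.

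The 4 lines each had 1 library without and 1 library with Shld, a small ligand that protects proteins tagged with a destabilising domain (DD) from degradation. The knockout line (mut-SF3B1 KO) has lost the mutant allele, the mutant degron line (DD-mut-SF3B1) carries the domain on mutant SF3B1, the wildtype degron line (DD-wt-SF3B1) carries it on wildtype SF3B1, and parental MEL202 cells carry neither change. The labels give 2 days for the 3 derived lines and no time for parental cells. The column names of the table describe the knockout line as also having the domain knocked in at wildtype SF3B1, and give 4 days for the knockout and parental libraries without Shld, so line, time and degron cannot be told apart in the knockout line. Each derived line is labelled as a clone, so what is particular to a clone cannot be told apart from the edit it carries. Values are FPKM (fragments per length of transcript and depth of library) that the authors rescaled to the same upper quartile in every library, here called rescaled FPKM. Separate cultures are not stated. P-values between lines rest on the spread within the 4 pairs of libraries, which differ in Shld state. Those for Shld withdrawal rest on the parental pair alone. Neither is a spread between repeat cultures, and part of it may be technical.

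SF3B1 itself stood at 138 rescaled FPKM without and 158 with Shld in knockout cells, at 252 and 248 in mutant degron cells and at 201 and 188 in wildtype degron cells, against 240 and 266 in parental cells. It was lower in the knockout line by 0.77 ± 0.09 on the log2 scale (SE, limma adjusted p = 0.00098), and lower in the wildtype degron line (difference -0.38 ± 0.09, adjusted p = 0.018). No such difference was detected in the mutant degron line, at -0.01 ± 0.09 (adjusted p = 0.93). Protein, on which the degron acts, was not assayed. Relative depth was only estimated, from the most frequent ratio of low values to those of the parental library with Shld. At that ratio lay 13.3% to 19.4% of the low loci. Fragments per unit of value were estimated at 1.45 and 1.48 times that parental library in the knockout and mutant degron libraries with Shld. For the other libraries the estimate was 1.05 to 1.19 times. Absolute depth was unknown.

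Immunoglobulin adhesion molecules sit in the plasma membrane and bind partners on the same or on neighbouring cells, either like to like, as in L1CAM and NCAM1, or with other family members, integrins and matrix proteins. NRCAM, L1CAM, CHL1 and NFASC form the L1 family, whose short cytoplasmic tails bind ankyrins and through them the spectrin skeleton, and which guide axons and organise nodes of Ranvier. Melanocytes arise from the neural crest, and ALCAM, MCAM and L1CAM were each described early on as surface antigens of melanoma.

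NRCAM was the gene of the 9 with the widest range between lines, as a ratio of line means. It stood at 100.2 rescaled FPKM without and 93.5 with Shld in knockout cells, at 28.6 and 32.1 in mutant degron cells, and at 0.488 and 0.375 in wildtype degron cells, against 1.17 and 0.891 in parental cells. All 4 libraries of the knockout and mutant degron lines lay far above the other 4, no 2 lines overlapped, and the wildtype degron line was the lowest. The line means were 96.9 ± 4.73, 30.35 ± 2.52 and 0.432 ± 0.0797 in those derived lines and 1.03 ± 0.195 in parental cells (SD, n = 2 libraries each, 1 per Shld state). The ratio of means to parental cells was 94.2 in the knockout line, 29.5 in the mutant degron line and 0.419 in the wildtype degron line. On the log2(value + 1) scale, where low genes change less than in ratio, the differences were 5.59, 3.95 and -0.50. The wildtype degron difference depended on the setting, at -1.08 with a pseudocount of 0.1 and -0.29 after quantile normalization. Within matched Shld states the knockout difference was 5.55 without and 5.64 with Shld, and the mutant degron difference was 3.77 without and 4.13 with Shld.

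Among the 12921 loci, the NRCAM gain ranked 4th in the knockout line and 5th in the mutant degron line. Just outside it, among the 8536 named genes averaging at least 5, stood FN1, which encodes fibronectin, at 4.80 in the knockout line. In the mutant degron line RNU6ATAC, a small nuclear RNA gene, stood above NRCAM at 5.69, so NRCAM led only once small RNAs were set aside. In the wildtype degron line it ranked 11029th of 12921. By level, NRCAM lay at the 89.9th and 89.2nd percentile of these loci in the knockout libraries without and with Shld and at the 66.2nd and 68.9th in the mutant degron libraries. It lay at the 1.89th and 1.71st percentile in the wildtype degron libraries and at the 4.31st and 2.41st in parental cells.

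**Figure D1:**
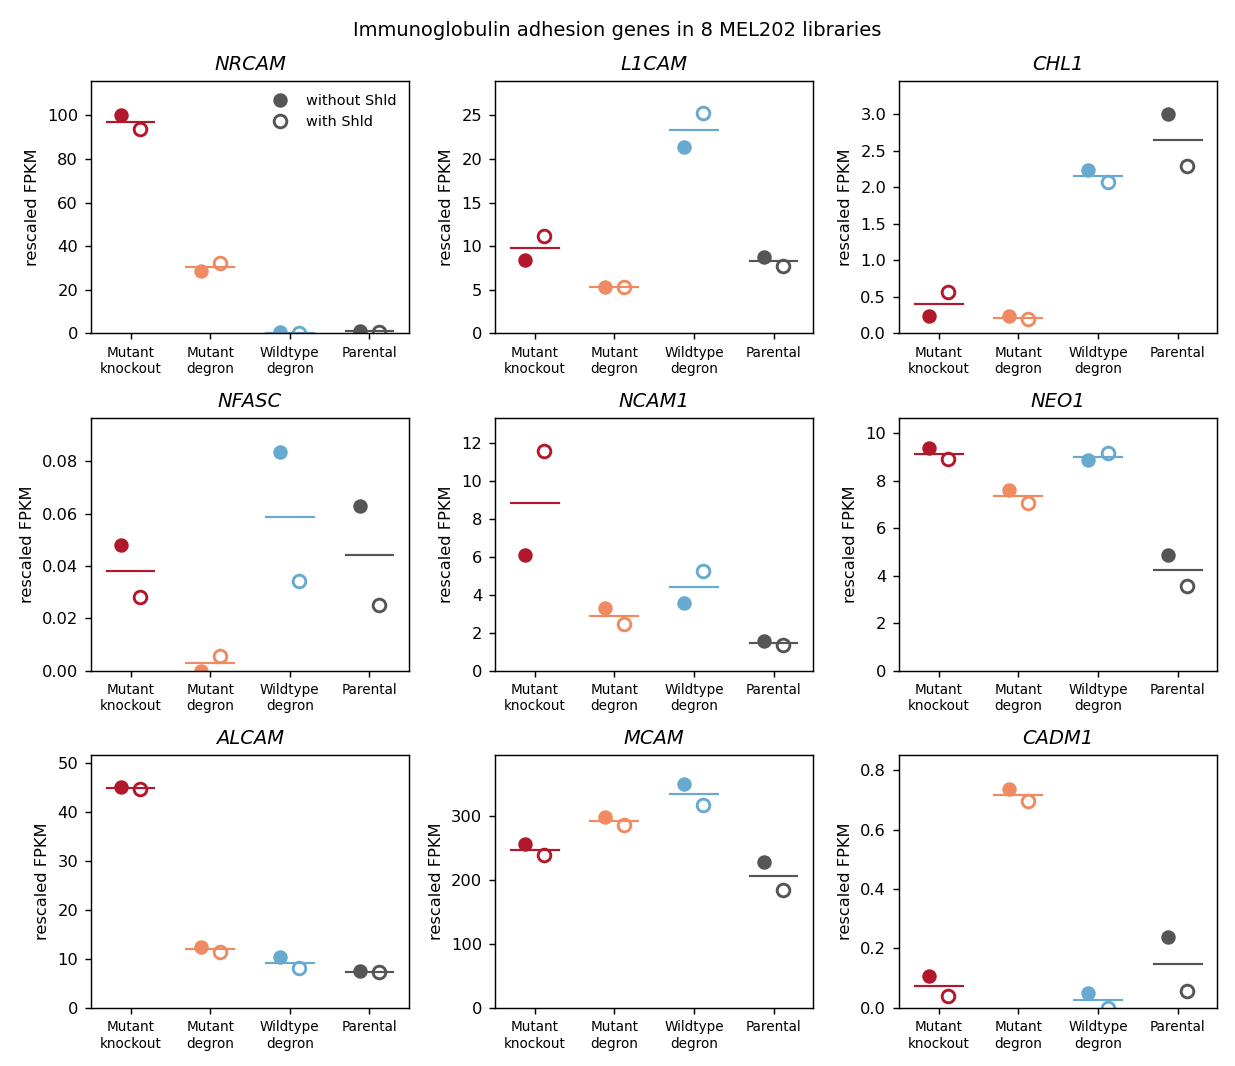
Level of each of the 9 genes in rescaled FPKM (vertical axes, each with its own linear scale from 0) in the 4 lines, with 1 point per library: filled without Shld, open with Shld, and a line at the mean of both. NRCAM reaches 100.2 and 93.5 in the knockout line against 1.17 and 0.891 in parental cells, L1CAM is highest in the wildtype degron line, and CHL1 is low in the knockout and mutant degron lines.

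NRCAM has several annotated start sites, and the locus value does not say which of them was used. RefSeq gives windows of 250 bases before to 50 after the start in build GRCh38.p14 for 7 of the 9 genes, in 13 windows. The table was made on another build, so the windows serve for their sequence only. The outermost NRCAM start, an inner NRCAM start and the ALCAM start are shown because NRCAM and ALCAM had the largest differences of the 9 in the knockout line on the log2(value + 1) scale, and because the 2 NRCAM windows differ in makeup. Capitals mark GGGCGG, the core of the GC box bound by SP1 and related factors, and in the inner NRCAM window CATGTG (as CACATG on the strand shown), an E-box of the kind bound by MITF, each searched on both strands.
NRCAM outermost start, chr7:108456387-108456686, minus strand: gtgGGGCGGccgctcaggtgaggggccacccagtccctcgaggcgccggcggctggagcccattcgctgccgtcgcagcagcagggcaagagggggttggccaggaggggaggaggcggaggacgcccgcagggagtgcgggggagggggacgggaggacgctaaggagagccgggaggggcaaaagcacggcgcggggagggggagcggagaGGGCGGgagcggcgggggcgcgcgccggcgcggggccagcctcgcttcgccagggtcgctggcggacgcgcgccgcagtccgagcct
NRCAM inner start, chr7:108328477-108328776, minus strand: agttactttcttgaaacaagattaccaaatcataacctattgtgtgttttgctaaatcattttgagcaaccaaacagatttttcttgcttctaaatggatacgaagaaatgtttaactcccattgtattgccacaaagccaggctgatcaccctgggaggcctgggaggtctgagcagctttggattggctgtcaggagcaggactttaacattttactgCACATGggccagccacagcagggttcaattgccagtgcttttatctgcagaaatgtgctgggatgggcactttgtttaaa
ALCAM start, chr3:105366659-105366958, plus strand: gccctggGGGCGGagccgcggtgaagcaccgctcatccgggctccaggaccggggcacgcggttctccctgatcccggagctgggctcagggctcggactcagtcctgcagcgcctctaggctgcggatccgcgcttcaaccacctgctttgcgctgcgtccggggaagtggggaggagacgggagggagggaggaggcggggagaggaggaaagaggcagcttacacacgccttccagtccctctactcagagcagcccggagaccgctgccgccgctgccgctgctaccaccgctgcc

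The outermost NRCAM window held 38 CpG dinucleotides, above 90.1% of 35116 RefSeq windows of the same length, whose median was 14. The inner NRCAM window held 1 and the ALCAM window 26. GGGCGG was found in 7 of the 13 windows, those of 6 of the 7 genes, and in 45.0% of all windows. CATGTG was found in the inner NRCAM window alone of the 13, and in 11.1% of all windows. CACGTG (7.26% of all windows), the TEAD motif core GGAATG (14.0%) and TATAAA (11.5%) were in 0 of the 13. These matches describe letters and not binding.

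L1CAM, the founding member of the L1 family, a homophilic adhesion molecule that also binds integrins, went another way than NRCAM. It stood at 8.41 rescaled FPKM without and 11.2 with Shld in knockout cells, at 5.28 and 5.31 in mutant degron cells, and at 21.3 and 25.3 in wildtype degron cells, against 8.72 and 7.78 in parental cells. Both wildtype degron libraries were the highest and both mutant degron libraries the lowest, while the knockout and parental ranges overlapped. L1CAM was 2.83 times the parental mean in the wildtype degron line (log2 difference 1.39 ± 0.14, limma adjusted p = 0.0029), with the higher value in both Shld states. In the mutant degron line it was lower, at -0.55 ± 0.14 (adjusted p = 0.031), but the call was lost with either mutant degron or either parental library left out (adjusted p 0.093 to 0.16). In the knockout line the difference of 0.21 did not pass (adjusted p = 0.28, 95% interval -0.12 to 0.54). Between derived lines, the knockout line was lower than the wildtype degron line (-1.18 ± 0.14, adjusted p = 0.00067), and the wildtype degron line was higher than the mutant degron line (1.94 ± 0.14, adjusted p = 0.00015).

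CHL1, the close homologue of L1, which acts in neurite growth and cell migration, was low throughout. Its main locus had 0.240 rescaled FPKM without and 0.561 with Shld in knockout cells, 0.234 and 0.192 in mutant degron cells, and 2.24 and 2.07 in wildtype degron cells, against 2.999 and 2.29 in parental cells. The 4 libraries of the knockout and mutant degron lines, where NRCAM was high, were the 4 lowest for CHL1. It reached the mean of 1 needed for testing only through parental and wildtype degron cells, a filter that favours a difference, so each call is given also for the fit with no filter on low values. The knockout difference was -1.38 ± 0.20 (log2, limma adjusted p = 0.0022, and 0.0044 with no filter), and the mutant degron difference was -1.58 ± 0.20 (adjusted p = 0.0025, and 0.0060 with no filter). With a pseudocount of 0.1 these differences were -2.52 and -3.12. The ratio of means to parental cells was 0.152 and 0.0805, so parental cells had 6.60 and 12.4 times as much. In the wildtype degron line the difference was -0.20 ± 0.20 (adjusted p = 0.47, 95% interval -0.67 to 0.27). The wildtype degron line was higher than the mutant degron line by 1.38 ± 0.20 (adjusted p = 0.0020, and 0.0043 with no filter), and the knockout line was lower than the wildtype degron line by 1.18 (adjusted p = 0.0030, and 0.0050 with no filter), while knockout and mutant degron lines differed by 0.20 ± 0.20 (adjusted p = 0.57).

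A second CHL1 locus was weaker. It was listed at 0 in both knockout libraries, at 0 and 0.191 in mutant degron cells without and with Shld, and at 0.828 and 0.191 in wildtype degron cells, against 0.428 and 0.703 in parental cells. By line mean the 2 loci were lowest in the same 2 lines. With Shld, however, the second locus stood at 0.191 in both mutant and wildtype degron cells. NFASC, which encodes neurofascin, the L1 family member of axon initial segments and nodes of Ranvier, was near 0 in all lines, with at most 0.0836 rescaled FPKM. Of the L1 family, NRCAM, L1CAM and CHL1 were thus measurable, and each had its own order of lines.

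NCAM1, the neural cell adhesion molecule that carries polysialic acid and is also known as CD56, was higher in the knockout line. It stood at 6.08 rescaled FPKM without and 11.6 with Shld in knockout cells, at 3.27 and 2.46 in mutant degron cells, and at 3.58 and 5.27 in wildtype degron cells, against 1.54 and 1.34 in parental cells. Every derived library lay above both parental libraries, and both knockout libraries lay above all others. NCAM1 rose in the knockout line by 1.95 ± 0.28 on the log2 scale, 6.13 times the parental mean (limma adjusted p = 0.0019). In the wildtype degron line it was higher by 1.14 ± 0.28 (adjusted p = 0.017), a call lost without the wildtype degron library with Shld or either parental library (adjusted p 0.056 to 0.11). In the mutant degron line the difference of 0.66 ± 0.28 did not pass (adjusted p = 0.13). The knockout line exceeded the mutant degron line by 1.30 ± 0.28 (adjusted p = 0.029) and the wildtype degron line by 0.82 ± 0.28 (adjusted p = 0.046). Without the knockout library with Shld these were 0.88 (adjusted p = 0.070) and 0.40 (adjusted p = 0.23), and leaving out other libraries also ended both calls in most fits.

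NEO1 encodes neogenin, a receptor of netrins and repulsive guidance molecules that is related to DCC. It stood at 9.37 rescaled FPKM without and 8.89 with Shld in knockout cells, at 7.59 and 7.07 in mutant degron cells, and at 8.85 and 9.15 in wildtype degron cells, against 4.88 and 3.57 in parental cells. All 6 derived libraries lay above both parental libraries, and the knockout and wildtype degron ranges overlapped. NEO1 rose by 0.97 ± 0.13 in the knockout line (limma adjusted p = 0.0015), by 0.95 ± 0.13 in the wildtype degron line (adjusted p = 0.0034) and by 0.68 ± 0.13 in the mutant degron line (adjusted p = 0.011). The mutant degron call was lost without either mutant degron library (adjusted p 0.077 and 0.086). No 2 derived lines differed past the threshold (adjusted p 0.13 to 0.92, differences 0.02 to 0.28).

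ALCAM, also called CD166, the activated leukocyte adhesion molecule that binds itself and CD6, followed NRCAM in the knockout line. It stood at 45.0 rescaled FPKM without and 44.6 with Shld in knockout cells, at 12.4 and 11.4 in mutant degron cells, and at 10.3 and 8.03 in wildtype degron cells, against 7.54 and 7.22 in parental cells. The knockout libraries stood apart from the other 6, which lay in a narrow range with parental cells lowest. ALCAM rose in the knockout line by 2.45 ± 0.12 on the log2 scale, 6.07 times the parental mean (limma adjusted p = 1.6e-05), and exceeded the mutant degron line by 1.83 ± 0.12 (adjusted p = 0.00020) and the wildtype degron line by 2.18 ± 0.12 (adjusted p = 1.9e-05). In the mutant degron line it was higher than in parental cells by 0.62 ± 0.12 (adjusted p = 0.0100), a call lost without either mutant degron library or the parental library with Shld (adjusted p 0.068 to 0.084). The wildtype degron difference of 0.27 ± 0.12 did not pass (adjusted p = 0.10), though it did without the library with Shld (0.43, adjusted p = 0.040). The wildtype degron line was lower than the mutant degron line by 0.36 (adjusted p = 0.039), a call that 7 of the 8 fits with a library left out did not keep.

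MCAM, also called CD146 or MUC18, a melanoma adhesion molecule of blood vessels and Schwann cells as well, was by far the most abundant of the 9 in every library. It stood at 255 rescaled FPKM without and 239 with Shld in knockout cells, at 299 and 285 in mutant degron cells, and at 350 and 317 in wildtype degron cells, against 228 and 184 in parental cells. All derived libraries lay above both parental libraries, in small steps. MCAM was higher in the wildtype degron line by 0.70 ± 0.11 (limma adjusted p = 0.0047), 1.62 times the parental mean, and in the mutant degron line by 0.51 ± 0.11 (adjusted p = 0.020), a call lost without either mutant degron library or the parental library with Shld (adjusted p 0.074 to 0.12). In the knockout line the difference of 0.27 ± 0.11 did not pass (adjusted p = 0.11), though it did without the parental library without Shld (0.42, adjusted p = 0.022). The knockout line was lower than the wildtype degron line by 0.43 ± 0.11 (adjusted p = 0.018), and this call was lost without the knockout library with Shld or the wildtype degron library without it (adjusted p 0.0880 and 0.11).

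CADM1, a nectin-like molecule of synapses and epithelia also known as SynCAM1, was the only one of the 9 whose highest values were in the mutant degron line. It had 0.107 rescaled FPKM without and 0.0403 with Shld in knockout cells, 0.737 and 0.697 in mutant degron cells, and 0.0507 and 0 in wildtype degron cells, against 0.238 and 0.0548 in parental cells. Both mutant degron libraries lay above the other 6. The level was under the limit for testing in every library.

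**Figure D2:**
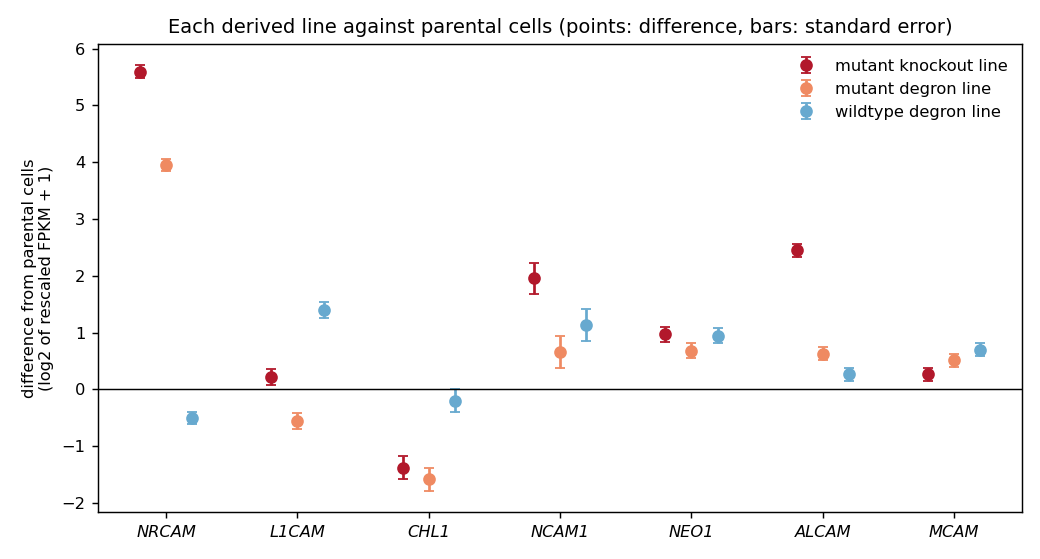
Difference of each derived line from parental cells on the log2(value + 1) scale (vertical axis) for the 7 genes with a mean of at least 1; points are limma estimates over 2 libraries a line and bars are their standard errors. NRCAM differs by 5.59 in the knockout line and 3.95 in the mutant degron line and by -0.50 in the wildtype degron line, CHL1 is below 0 in all 3, and NEO1 is above 0 in all 3.

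Counted over the 6 genes tested between lines, 4 passed the threshold in the knockout line against parental cells, 3 higher and 1 lower, where 35.0% of all loci passed, 16.0% higher and 19.0% lower. In the mutant degron line 5 passed, 3 higher and 2 lower, where 22.0% of all loci did, 9.67% higher and 12.3% lower. With 1 library left out 1 to 5 passed, and without either mutant degron library none but CHL1 did. Of the same 6, 4 passed for the wildtype degron line, all higher, with 38.2% of all loci past the threshold, 18.5% higher and 19.7% lower. The median difference of the 6 genes was 0.62, 0.57 and 0.82 in the knockout, mutant degron and wildtype degron lines, against -0.04, -0.04 and -0.01 over all loci. These 3 comparisons share the parental libraries. With the spread taken from the parental pair alone the differences are the same, and 3, 0 and 0 of the 6 passed in the knockout, mutant degron and wildtype degron lines. CHL1 entered only through the lines where it was high; over the other 5 genes, 3, 4 and 4 passed in the knockout, mutant degron and wildtype degron lines, and the medians were 0.97, 0.62 and 0.95. NEO1 was the only gene of the 6 that passed in the same direction in all 3.

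Between derived lines, 5 of the 6 passed for the knockout against the wildtype degron line, 2 higher and 3 lower, where 45.5% of all loci passed, 22.3% higher and 23.2% lower. For the knockout against the mutant degron line 3 passed, all higher, where 9.98% of all loci did, 4.88% higher and 5.1% lower. For the wildtype against the mutant degron line 3 passed, 2 higher and 1 lower, where 45.8% did, 24.2% higher and 21.6% lower. ALCAM and L1CAM passed in all 3 of these comparisons. Over the 5 genes other than CHL1 the counts were 4, 3 and 2. The knockout line exceeded the mutant degron line in L1CAM by 0.76 ± 0.14 (limma adjusted p = 0.018), a call lost without either mutant degron library (adjusted p 0.13 and 0.14).

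The sum of the 9 genes was 425 rescaled FPKM without and 409 with Shld in knockout cells, 357 and 345 in mutant degron cells, and 397 and 367 in wildtype degron cells, against 255 and 207 in parental cells. All derived libraries held more of this sum than parental cells. MCAM made up 60.1% and 58.4% of it in knockout cells without and with Shld, 83.7% and 82.8% in mutant degron cells, and 88.2% and 86.3% in wildtype degron cells, against 89.4% and 88.8% in parental cells. NRCAM made up 23.6% and 22.9% in knockout cells, 8.01% and 9.32% in mutant degron cells, and 0.123% and 0.102% in wildtype degron cells, against 0.457% and 0.430% in parental cells. In the knockout line NRCAM was thus the second most abundant of the 9, and L1CAM held that place in the wildtype degron line.

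**Figure D3:**
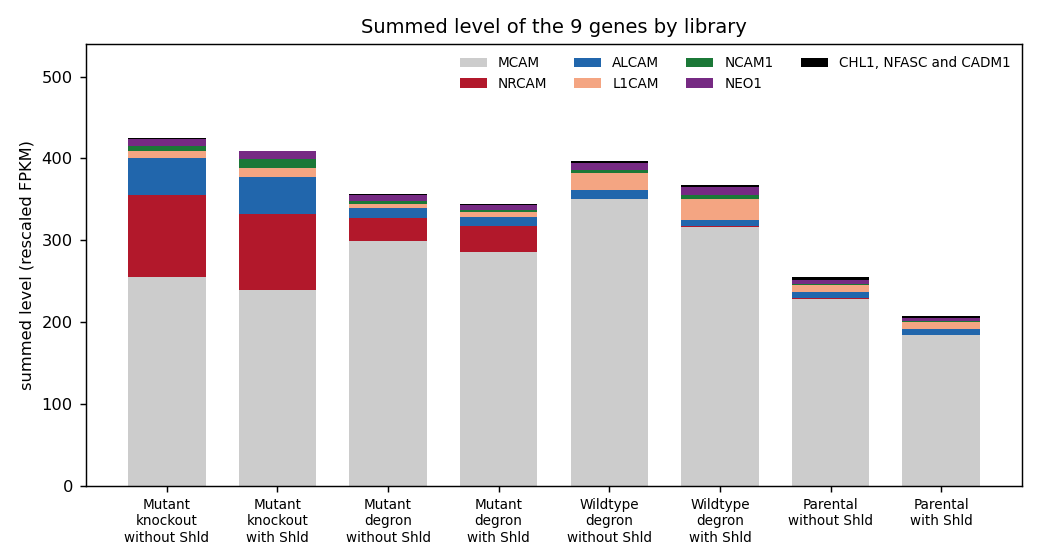
Summed level of the 9 genes in rescaled FPKM (vertical axis, stacked bars from 0) in each of the 8 libraries, with 1 library a bar. MCAM is the largest band in every library, the sum is 425 and 409 in the knockout line against 255 and 207 in parental cells, and NRCAM takes 23.6% and 22.9% of it in the knockout line.

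Shld withdrawal was then compared within each line, with 1 library per state and the spread taken from the parental pair. Of the 7 genes tested, 0 passed for the wildtype degron line, against 0.0155% of all loci (limma). Likewise 0 passed in the mutant degron line and 0 in the knockout line, where 0.186% and 0.186% of all loci did. At an unadjusted p under 0.05 the counts were 0, 0 and 1 of the 7 in the wildtype degron, mutant degron and knockout lines, and 418, 272 and 1165 of the 12921 loci. NRCAM differed without against with Shld by 0.10 ± 0.17 in the knockout line (limma adjusted p = 0.89), by -0.16 ± 0.17 in the mutant degron line (adjusted p = 1, 95% interval -0.69 to 0.36) and by 0.11 ± 0.17 in the wildtype degron line (adjusted p = 1). The mutant degron libraries had 28.6 rescaled FPKM of NRCAM without Shld and 32.1 with it. The wildtype degron libraries had 0.488 and 0.375, where the log2(value + 1) scale shrinks a difference. With a pseudocount of 0.1 the wildtype degron difference was 0.31. NRCAM reached the mean of 1 needed for testing through the knockout and mutant degron lines.

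NCAM1 in the knockout line was the gene with the unadjusted p under 0.05. In the knockout line it stood at 6.08 rescaled FPKM without Shld against 11.6 with Shld, a difference of -0.83 ± 0.16 (limma adjusted p = 0.55). In the wildtype degron line it stood at 3.58 without against 5.27 with Shld (-0.45 ± 0.16, adjusted p = 1), and in the mutant degron line at 3.27 without against 2.46 with Shld (0.30 ± 0.16, adjusted p = 1). NCAM1 was lower without Shld in the knockout and wildtype degron lines and higher without Shld in the mutant degron line. The difference between the withdrawals of the knockout and mutant degron lines was -1.13 ± 0.22 (limma adjusted p = 0.77), and between the wildtype and mutant degron lines -0.76 ± 0.22 (adjusted p = 1). L1CAM was lower without Shld in the knockout line by 0.37 ± 0.15 (adjusted p = 0.59), and ALCAM higher without Shld in the wildtype degron line by 0.32 ± 0.13 (adjusted p = 1), neither past the threshold.

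**Figure D4:**
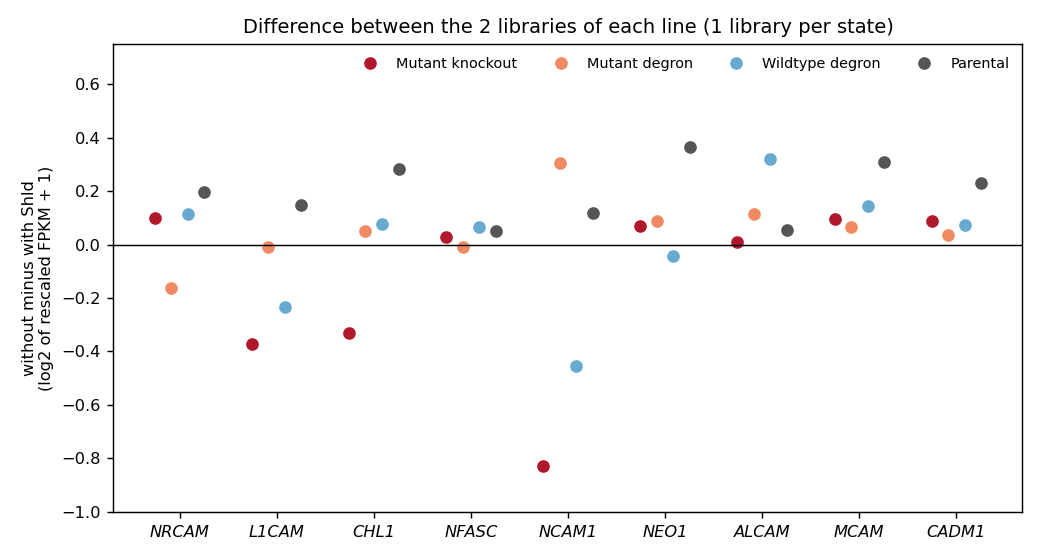
Difference between the library without and the library with Shld of each line on the log2(value + 1) scale (vertical axis) for the 9 genes, with 1 point per line and no error bars, since each state had 1 library. NCAM1 in the knockout line has the lowest value, -0.83, and the NRCAM points lie between -0.16 and 0.20.

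Related genes were read in 4 lists beside the 9, chosen with earlier results of these data known. Of other immunoglobulin adhesion genes, 20 of 48 entered the tests: 12 rose and 1 fell in the knockout line, 11 rose and 0 fell in the mutant degron line, and 12 rose and 2 fell in the wildtype degron line. Over all loci 16.0% rose and 19.0% fell in the knockout line, 9.67% and 12.3% in the mutant degron line, and 18.5% and 19.7% in the wildtype degron line. The median difference of the 20 was 0.49, 0.54 and 0.49, against -0.04, -0.04 and -0.01 over all loci. In the knockout line BOC, a hedgehog co-receptor, rose by 1.35 ± 0.14 (limma adjusted p = 0.00051), PVRL3, which encodes nectin-3, by 1.18 ± 0.11, the axon guidance receptor gene ROBO2 by 1.13 ± 0.18 and CNTN4, which encodes a contactin, by 1.02 ± 0.16. In the mutant degron line JAM3, of tight junctions, rose by 1.75 ± 0.17 (adjusted p = 0.00074), followed by ROBO1, which binds Slit proteins, at 0.91 ± 0.14. For the wildtype degron line ROBO1 led at 1.03 ± 0.14 (adjusted p = 0.0034), followed by ICAM1, the integrin ligand, at 0.91 ± 0.21.

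Of ligands and co-receptors, 19 of 38 entered: 11 rose and 2 fell in the knockout line, 8 rose and 1 fell in the mutant degron line, and 7 rose and 1 fell in the wildtype degron line. The shares called in either direction were 68.4%, 47.4% and 42.1%, against 35.0%, 22.0% and 38.2% of all loci. In the wildtype degron line that share was near that of all loci. By direction, 7 of the 19 rose and 1 fell there, where 18.5% and 19.7% of all loci did. SEMA3B, a secreted semaphorin of the class whose receptor complexes can hold NRCAM or L1CAM, rose by 2.25 ± 0.09 in the knockout line (limma adjusted p = 8.9e-06) and by 2.03 ± 0.09 in the mutant degron line (adjusted p = 4.1e-05). Its mean was 88.3 rescaled FPKM in the knockout line and 75.7 in the mutant degron line, against 17.8 in parental cells. FGFR1, a growth factor receptor that NCAM1 and L1CAM can engage, rose by 1.29 ± 0.08 in the knockout line. LGALS3, which encodes the glycan-binding galectin-3, fell to a mean of 59.7 in the knockout line, 335 in the mutant degron line and 558 in the wildtype degron line, against 981 in parental cells. It passed in all 3 (differences -4.02, -1.53 and -0.80, adjusted p = 1.5e-05, 0.0021 and 0.014).

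Of cytoplasmic partners, 22 of 29 entered: 9 rose and 6 fell in the knockout line, 3 rose and 4 fell in the mutant degron line, and 7 rose and 2 fell in the wildtype degron line. The shares called in either direction were 68.2%, 31.8% and 40.9%, against 35.0%, 22.0% and 38.2% of all loci. In the wildtype degron line that share was again near that of all loci. By direction, 7 of the 22 rose and 2 fell there, where 18.5% and 19.7% of all loci did. ANK2, one of the ankyrins that bind L1 family tails, rose by 1.37 ± 0.16 in the knockout line (limma adjusted p = 0.00081), to a mean of 33.6 rescaled FPKM, against 12.2 in parental cells. DPYSL2, which encodes the microtubule-binding protein CRMP2, rose by 1.95 ± 0.10 in the knockout line and 1.14 ± 0.10 in the mutant degron line. SPTAN1, which encodes alpha-II spectrin, rose by 0.99 ± 0.08 in the mutant degron line and 0.92 ± 0.08 in the wildtype degron line, and the kinase gene FYN was lower in the mutant degron line (-0.61 ± 0.12, adjusted p = 0.014). SDCBP, which encodes the scaffold syntenin, fell by 1.05 ± 0.08 in the knockout line and by 0.86 ± 0.08 in the mutant degron line.

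Of genes of shedding and glycosylation, 10 of 18 entered: 3 rose and 1 fell in the knockout line, 5 rose and 0 fell in the mutant degron line, and 8 rose and 0 fell in the wildtype degron line. The shares called in either direction were 40%, 50% and 80%, against 35.0%, 22.0% and 38.2% of all loci. In the knockout line that share was near that of all loci. By direction, 3 of the 10 rose and 1 fell there, where 16.0% and 19.0% of all loci did. ADAM10, a protease that sheds L1CAM and other adhesion molecules, was lower in the knockout line (-0.81 ± 0.12, limma adjusted p = 0.0025) and higher in the wildtype degron line (0.80 ± 0.12, adjusted p = 0.0041). MMP2, a matrix protease, averaged 5.28 rescaled FPKM in the knockout line and 1.80 in the mutant degron line, against 0.280 in parental cells. The differences were 2.29 ± 0.21 and 1.14 ± 0.21. MMP2 reached the mean of 1 needed for testing only through derived lines where it was high, a filter that favours a difference. The counts and shares of this list in both lines include it. MMP14, which activates MMP2, rose by 1.02 ± 0.21 in the knockout line. In the 3 withdrawals, 0 members of any of the 4 lists passed (limma).

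Markers of the tissue of origin and of other cells were set beside these values. MITF, SOX10 and the pigment genes were present in every library, and of 9 melanocytic markers 7 fell and 0 rose in the knockout line, 3 fell and 0 rose in the mutant degron line, and 4 rose and 1 fell in the wildtype degron line. The shares of all loci were 19.0% lower in the knockout line, 12.3% lower in the mutant degron line and 18.5% higher in the wildtype degron line. The summed level of the 9 markers ran from 6603 to 7370 rescaled FPKM in the knockout line, 7619 to 9232 in the mutant degron line, and 14334 to 15622 in the wildtype degron line, against 12033 to 13058 in parental cells. Of Schwann and glial markers, CDH19, a cadherin of Schwann cell precursors, had 58.3 rescaled FPKM without and 62.9 with Shld in knockout cells, 55.7 and 50.1 in mutant degron cells, and 29.8 and 31.6 in wildtype degron cells, against 36.7 and 32.7 in parental cells. The 2 lines with high NRCAM and low CHL1 had lower melanocytic sums and higher CDH19 than the other 2, and the part of this in the adhesion gene values was not tested. Of neuronal markers STMN2 and ELAVL4 were at 0 in all 8 libraries, and SNAP25 was at most 0.0297. RBFOX3 was the only one of 7 with a mean of at least 1, and it lay between 10.3 and 17.9 rescaled FPKM in the 8 libraries. Of fibroblast markers LUM alone entered, and it fell to a mean of 1.63 in the knockout line, 7.17 in the mutant degron line and 11.9 in the wildtype degron line, against 25.2 in parental cells. The leukocyte marker CD3E and the fibroblast marker THY1 were at 0 in all libraries, and 0 endothelial, leukocyte or epithelial markers had a mean of at least 1. Below that mean the leukocyte marker PTPRC lay between 0.232 and 1.22 over the 8 libraries, and the endothelial marker KDR had 1.18 and 1.40 in mutant degron cells without and with Shld, against 0.148 and 0.148 in parental cells. Fewer cells of a type and less RNA per cell cannot be told apart in these bulk libraries.

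The genes most like NRCAM across the 8 libraries, by Pearson correlation of log2(value + 1) among 8471 named genes, were EML6 (0.998), SCRG1 (0.998), TSC22D1 (0.996), C9orf3 (0.995) and GADD45B (0.995). SCRG1 averaged 15.8 rescaled FPKM in the knockout line, 6.36 in the mutant degron line and 0.0369 in the wildtype degron line, against 0.290 in parental cells, the same order of lines as NRCAM. The 8 points are 4 pairs of libraries of 1 line, so these coefficients describe an order of 4 lines. Those most like ALCAM were WDR36 (0.995), GATC (0.990) and GNB4 (0.988), and those most like CHL1 were PROSC (0.994), ZMAT5 (0.991) and HDDC3 (0.989). For L1CAM they were PGBD5 (0.989), EHMT1 (0.986) and DVL2 (0.977), and for NCAM1 GALNT11 (0.980), SPECC1 (0.977) and ZNF704 (0.975). For MCAM they were SCPEP1 (0.987), NFE2L1 (0.985) and TNFRSF1A (0.984), and for NEO1 SLC7A8 (0.993), STEAP3 (0.988) and ATRN (0.985). Among the members themselves, NRCAM had a coefficient of 0.85 with ALCAM and -0.92 with CHL1, and NCAM1 of 0.81 with both ALCAM and NEO1, again as a description over 8 libraries.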

How the data were processed

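RNA of 8 MEL202 libraries was sequenced with TruSeq kits and paired reads of 100 bases, per the labels' protocols. TopHat, Cufflinks and hg19 are named in the submitters' processing notes. Their versions, the annotation and strandedness were not given in the sources used here. A single deposited table holds 32087 loci in FPKM, which the authors rescaled, as its name and values show, so that the 75th percentile over loci was 10 in each library (9.99 to 10.0); that FPKM was the input is inferred. The values are not counts, so absolute depth is unknown, and each library listed 13430 to 14080 loci at 0. Such a 0 can be an estimate that failed.

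Lines were compared with limma 3.58.1 (R 4.3.3, trended empirical Bayes) on log2(value + 1) over 12921 loci with a mean of at least 1, with 1 mean per line over both Shld states. The spread came from the 4 pairs (4 residual degrees of freedom, 3.46 prior), so any Shld effect counts as spread. Withdrawals used only the parental pair's spread (1 residual degree of freedom), with each other library assumed to vary like it. P-values were adjusted by Benjamini-Hochberg over all loci at 0.05. The limma fits were also run on simulated data with independent noise in each library. The real pairs differ by Shld state, so that run is no check of the p-values given here. Alternatives were pseudocount 0.1, no filter, median centring, quantile normalization, other sources of the spread, summed loci and each library left out.

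All 9 genes are described. Of each context list up to 4 loci past the threshold with the largest differences are eligible for naming, and 5 (NRCAM) or 3 genes of most alike pattern are named. The members and lists were chosen with earlier results of these data known. Some listed markers are not reported here.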

Additional observations from a re-analysis of the deposited data

How the results depend on the processing

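Pairing by replicate was not possible because each group has 1 library and the groups share only 1 replicate number. Libraries of the lines do match by Shld state, and with that state as a covariate 4487, 2674 and 4848 loci and 4, 5 and 4 members were called in the knockout, mutant degron and wildtype degron lines. The number of loci past the threshold was 4520 for the knockout line, 2841 for the mutant degron line and 4941 for the wildtype degron line against parental cells. It was 5877 for knockout against wildtype degron, 1289 for knockout against mutant degron and 5917 for wildtype against mutant degron. With the spread from the parental pair alone these 6 counts were 1978, 286, 1, 3325, 181 and 2794, and the members called were 0 in the mutant degron line, 0 in the wildtype degron line and 1 for knockout against mutant degron. With each library left out they ranged from 2600 to 4235, 706 to 3206, 2010 to 5403, 3956 to 5769, 271 to 1409 and 3295 to 6329. The members called ranged from 4 to 5, 1 to 5, 3 to 4, 3 to 5, 1 to 3 and 2 to 3. With no filter, 3 members were called in the mutant degron line and 1 for knockout against mutant degron. With named genes of mean at least 5, a setting added after seeing the data that leaves out CHL1 and NCAM1, 2 were called in the knockout line and 3 for knockout against wildtype degron.

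Withdrawal called 2 loci in the wildtype degron, 24 in the mutant degron and 24 in the knockout line. These were 26, 47 and 43 with a pseudocount of 0.1, 0, 317 and 350 with no filter, and 14, 5 and 217 over named genes of mean at least 5. The wildtype degron count was 18 after median centring and 12 with the spread from the parental and knockout pairs, and the knockout count 14 after quantile normalization. With each library of the other 2 derived lines left out they were 2, 25 to 33 and 24 to 26; leaving out a library of the line itself or a parental one leaves no such test. NEO1 in the knockout against the wildtype degron line was 0.02, and with each library left out it ran from -0.016 without the knockout library lacking Shld to 0.053; it was also below 0 without the wildtype degron library lacking Shld (-0.0031). CHL1 on withdrawal in the mutant degron line was 0.05, and -0.16 with its loci summed. Over single members, 805 values kept their direction and side of the threshold (for NRCAM between lines, moved by less than the standard error), 59 lost a call, 3 gained one, 3 turned sign and 8 NRCAM values moved more. With quantile normalization or a pseudocount of 0.1, NRCAM was 5.76 or 6.44 in the knockout line, 4.09 or 4.76 in the mutant degron line and -0.29 or -1.08 in the wildtype degron line. CHL1 was -2.52 and -3.12 in the knockout and mutant degron lines with a pseudocount of 0.1. The cause of these changes was not tested. Low values limit NFASC, CADM1 and CHL1.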
